A study of Mus musculus with 14 samples.

Results

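The cells described here are Ly6a-positive basal keratinocytes of mouse back skin in which at most 1 of 4 genes of the Gpnmb state was detected. They were chosen by a rule on unique molecular identifiers (UMIs, 1 per captured transcript) in both 10x single-cell libraries, and 1943 of 8396 cells met it. Barcodes needed 1000 UMIs, 500 genes and a mitochondrial share no higher than 10%, and at least 1 Ly6a UMI. Krt1 and Krt10 together had to be under 0.2% of UMIs, Cd34, Krt79, Top2a and Mki67 had to be at 0, fewer than 2 of Gpnmb, Mmp3, Thy1 and Serpinb7 could be detected, and fewer than 4 of Atf3, Fosb, Egr1, Socs3, Btg2 and Cyr61. In the aged library 985 of 4351 cells met it (22.6%, exact 95% interval 21.4 to 23.9), and in the young library 958 of 4045 (23.7%, 22.4 to 25.02). Among them 457 aged and 271 young cells had 1 of Gpnmb, Mmp3, Thy1 and Serpinb7 detected. All cells that met the rule are called Ly6a+ basal cells, or members, below.

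The study compared female mice of 24 months (aged) and 2 months (young), whose strain the labels write as C57B8 in 1 place and as C57B6 in another. Back skin was digested with trypsin and sorted, and the labels name no treatment, transgene or number of animals. The 10x libraries, 1 per age, hold lineage-negative, integrin α6-positive cells. Epidermal stem cells (EpdSC: lineage-negative, integrin α6-high, CD34-negative, Sca1-positive) and hair follicle stem cells (HFSC: the same gate but CD34-positive and Sca1-negative) were sequenced as 2 bulk RNA libraries and 1 ATAC library per population and age. The bulk and ATAC libraries are separate samples that took no part in the rule, but Ly6a, which encodes Sca1, Cd34 and Itga6 were sort markers there.

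The interfollicular epidermis is renewed by a single layer of basal keratinocytes. These cells make the keratin pair Krt5 and Krt14, hold on to the basement membrane through α6β4 integrin hemidesmosomes, and move up into the suprabasal layers as they switch to Krt1 and Krt10. Hair follicles share Krt5 and Krt14 but carry their own stem cells in the bulge, marked by CD34, and an upper part marked by Krt79 and Krt17.

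Depth differed between the libraries and little between the chosen cells and the rest. Ly6a+ basal cells had a median of 2310 UMIs in the aged and 3950 in the young library, against 2298.5 and 3905 in the other cells, and summed to 2359722 and 3875140 UMIs. Of the kept barcodes 33 occurred in both libraries, and 7 members per library carried such a barcode. A doublet caller marked 1 aged and 3 young cells, which is too few to call it working, and 0 members. Levels are in CPM, a gene's UMIs summed over the cells and scaled to the same total of UMIs in every set, their intervals are exact 95% Poisson intervals and those of shares exact binomial ones. Both cover counting error only, and with 1 library per age no test between ages exists in the single cells.

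Of the 5 markers given for the cells, 3 were abundant in them. Krt14 had a UMI in 99.8% of aged and 100% of young members, and its level was 18689 CPM in aged members against 14063 CPM in the other aged cells, and 13794 CPM in young members against 8636 CPM in the other young cells. Krt5 stood at 5557 CPM in aged members against 4318 CPM in the other aged cells, and 6145 CPM in young members against 4099 CPM in the other young cells. Ly6a, which the rule used, had 801 CPM in aged and 682 CPM in young members, against 203 and 245 CPM in the other cells. The members with a single Ly6a UMI numbered 498 in the aged and 358 in the young library. Beside this, a Ly6a UMI was found in 7 of 78 aged cells with a Cd34 UMI (8.97%, median 1553 UMIs) and in 33 of 248 young ones (13.3%, median 2596 UMIs), cells that should lack the gene.

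The 2 rarer markers were weak. H2-M2, a non-classical class I gene, was at 8.48 CPM in aged and 28.9 CPM in young members, against 5.05 and 19.9 CPM in other cells, and 1.62% and 5.53% of members had a UMI. In the young library 59 of its 112 UMIs lay in 10 cells. Cbr2, a carbonyl reductase, was at 53.4 CPM in aged and 123 CPM in young members, against 31.8 and 54.1 CPM in other cells. In bulk RNA, edgeR called H2-M2 higher in EpdSC at both ages, with log2 fold changes of 5.41 ± 0.433 (SE, adjusted p = 3.13e-06 by edgeR) in aged and 8.70 ± 0.605 (SE, adjusted p = 8.59e-07 by edgeR) in young mice, and called Cbr2 at neither (edgeR adjusted p = 0.442 and 0.872). H2-M2 was nearly absent from both aged HFSC libraries, with 0.604 and 0.329 CPM, and from the young ones, with 0 and 0.0787 CPM. The name interfollicular thus rests on the rule, and some members carried genes that bulk RNA placed on the follicle side, described further on.

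Apart from Ly6a, the genes that led the members over the other cells were modest in size. Of 2320 genes with 50 CPM or more, 1 was past 2-fold higher in both libraries (0.0431%), which was Ly6a itself, and 35 were past 2-fold lower (1.51%). These ratios compare cells that the rule itself split, so they are a description without a test. The 14 genes that followed Ly6a were Il1r2, Ccnd2, Igfbp3, Fcgbp, Fbxo32, Smoc2, Fgfr2, Serpinb10, Tppp3, Cdh13, Chit1, Ctsl, Wls and Itga6.

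Receptors and adhesion genes were among them. Il1r2 (ENSMUSG00000026073, chromosome 1, 40084692 to 40125230) encodes the decoy receptor that binds interleukin-1 without signalling, and stood at 281 CPM in aged members against 143 CPM in the other aged cells, and 220.4 CPM in young members against 84.0 CPM in the other young cells. A UMI of it was found in 39.9% of aged and 43.7% of young members, against 21.9% and 19.2% of the other cells and 3.85% and 5.65% of cells with a Cd34 UMI. With every cell thinned to 1000 UMIs the shares were 21.0% and 16.5% of members, against 10.8% and 6.90% of other cells, so the order was the same at equal depth. Fgfr2 (ENSMUSG00000030849, chromosome 7, 130162451 to 130266808), the receptor of keratinocyte growth factor, was at 119 CPM in aged members against 76.4 CPM in the other aged cells, and 144 CPM in young members against 91.7 CPM in the other young cells. Itga6 (ENSMUSG00000027111, chromosome 2, 71786886 to 71858427), the α6 chain of the hemidesmosome integrin and part of the gate of all samples, was at 333 CPM in aged members against 231.6 CPM in the other aged cells, and 304 CPM in young members against 181 CPM in the other young cells. The T-cadherin gene Cdh13 had 187 CPM in aged and 173 CPM in young members, against 122 and 113 CPM in other cells.

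Secreted proteins and secretion formed a second set. Igfbp3 (ENSMUSG00000020427, chromosome 11, 7206086 to 7215498), which binds insulin-like growth factors outside the cell, was at 252 CPM in aged members against 145 CPM in the other aged cells, and 224 CPM in young members against 120.3 CPM in the other young cells. Smoc2 (ENSMUSG00000023886, chromosome 17, 14279490 to 14404790), a calcium-binding matrix protein, was at 191 CPM in aged members against 121 CPM in the other aged cells, and 349 CPM in young members against 172 CPM in the other young cells. Wls, the carrier that takes WNT ligands to the cell surface, had 247 CPM in aged and 273 CPM in young members, against 172 and 172 CPM in the other cells. Chit1, a chitinase, had 156 and 158 CPM in aged and young members, against 106 and 94.9 CPM in other cells. Fcgbp, a secreted mucin-like protein named for binding IgG, was the most abundant of these genes beside Ccnd2, with 565 and 848 CPM in members against 317 and 494 CPM in other cells. In each of these 5 genes the members were above the other cells of their own library at both ages, by 1.44 to 2.03-fold.

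The remaining leading genes act inside the cell. Ccnd2 (ENSMUSG00000000184, chromosome 6, 127125162 to 127152188), the D-type cyclin of the G1 phase, was at 692 CPM in aged members against 368 CPM in the other aged cells, and 887 CPM in young members against 503 CPM in the other young cells. Fbxo32, a ubiquitin ligase subunit known from muscle atrophy, had 114 CPM in aged and 162 CPM in young members, against 67.4 and 79.9 CPM in other cells. The tubulin-binding Tppp3, the lysosomal protease gene Ctsl and the serpin gene Serpinb10 completed the list. Ctsl stood at 184 and 172 CPM in aged and young members, against 127 and 105 CPM in other cells.

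**Figure D1:**
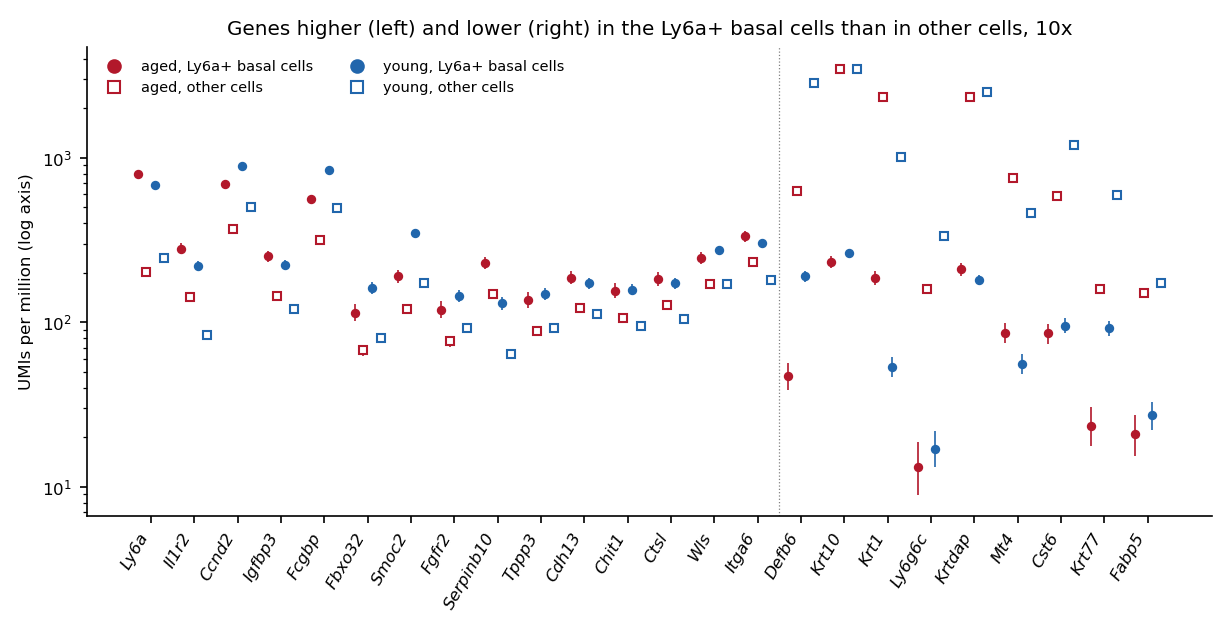
Level in CPM (log axis) of genes higher (left of the dotted line) and lower (right) in Ly6a+ basal cells (filled circles) than in all other kept cells (open squares), aged in red and young in blue, with exact 95% Poisson intervals. Ly6a at the far left shows the widest gap among the higher genes and Defb6, Krt10 and Krt1 the widest among the lower ones drawn, each gene taken by the smaller of its aged and young ratios, and Krt79, at 0 in members by the rule, is not drawn.

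Bulk RNA compared these 14 genes between sorted EpdSC and HFSC, in samples that the rule did not use. The sort and the rule share Ly6a and Cd34, and Itga6 was a sort marker, so the 2 readouts did not choose cells independently. HFSC are also not the other cells of the 10x ratio, so the contrast does not test members against those cells. A Cd34 UMI was found in 78 aged and 248 young 10x cells. EpdSC exceeded HFSC in 11 of the 14 by edgeR at both ages, the same 11 genes at 24 and 2 months, and 0 were lower. Of all 21464 genes 12.2% were called higher and 11.9% lower in aged mice, and 13.0% and 13.1% in young mice. The median log2 fold change of the 14 was 2.46 in aged and 1.95 in young mice, beside -0.09 and -0.06 over all genes. Serpinb10, Cdh13 and Ctsl were called at neither age. In bulk samples fewer cells of a type and less RNA per cell cannot be told apart. The sort set no limit on Krt1 or Krt10, so the sorted EpdSC can also hold cells outside the rule. Krt1 averaged 1466 ± 274 CPM in aged and 738 ± 39.9 CPM in young EpdSC (SD, n = 2 libraries each), which does not give the share of such cells.

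Il1r2 and Chit1 had the widest differences. Il1r2 had 176 and 133 CPM in aged EpdSC against 2.35 and 3.46 CPM in aged HFSC, and 185 and 159 CPM in young EpdSC against 0.399 and 3.93 CPM in young HFSC. Its log2 fold change was 5.73 ± 0.583 (SE, adjusted p = 2.19e-05 by edgeR) in aged and 6.35 ± 0.609 (SE, adjusted p = 1.15e-05 by edgeR) in young mice, and no EpdSC library came near an HFSC library. Chit1 had 415 and 453 CPM in aged EpdSC against 9.22 and 11.2 CPM in aged HFSC, and 317 and 319.8 CPM in young EpdSC against 2.23 and 5.82 CPM in young HFSC, with log2 fold changes of 5.41 ± 0.333 (SE, adjusted p = 3.89e-07 by edgeR) and 6.32 ± 0.354 (SE, adjusted p = 1.75e-07 by edgeR). Fbxo32 rose by 3.37 and 3.46, Tppp3 by 3.26 and 2.60, and Smoc2 by 2.72 and 3.84 on the log2 scale in aged and young EpdSC over HFSC. Fcgbp rose by 2.55 and 2.80, Ccnd2 by 2.36 and 1.98, Itga6 by 1.66 and 1.91, Fgfr2 by 1.47 and 1.20, and Wls by 0.91 and 0.99.

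Igfbp3 was the 1 gene of the 11 that lost a call under the bulk alternatives run. It had 784 and 937 CPM in aged EpdSC against 115 and 123 CPM in aged HFSC, and 826 and 715 CPM in young EpdSC against 154 and 467 CPM in young HFSC, so that the young HFSC libraries lay further apart than the aged ones. Its log2 fold change was 2.85 ± 0.385 (SE, adjusted p = 0.000193 by edgeR) in aged and 1.31 ± 0.365 (SE, adjusted p = 0.0199 by edgeR) in young mice, and the young call was lost without young EpdSC replicate 1 (1.21, edgeR adjusted p = 0.0555) and in a fit of only the 4 young libraries (1.28, edgeR adjusted p = 0.0668). The difference between the ages was itself not called for any of 95 named genes, with 26 of them at an unadjusted p under 0.05 and 1 of all 21452 genes called by edgeR. Serpinb10 stood at 29.2 and 28.9 CPM in aged EpdSC against 30.9 and 47.3 CPM in aged HFSC, and its log2 fold change was -0.43 ± 0.297 (SE, adjusted p = 0.355 by edgeR) there and -0.65 ± 0.299 (SE, adjusted p = 0.141 by edgeR) in young mice. Without young EpdSC replicate 1 or young HFSC replicate 1 Serpinb10 was called lower in young EpdSC (edgeR adjusted p = 0.0483 and 0.0340).

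**Figure D2:**
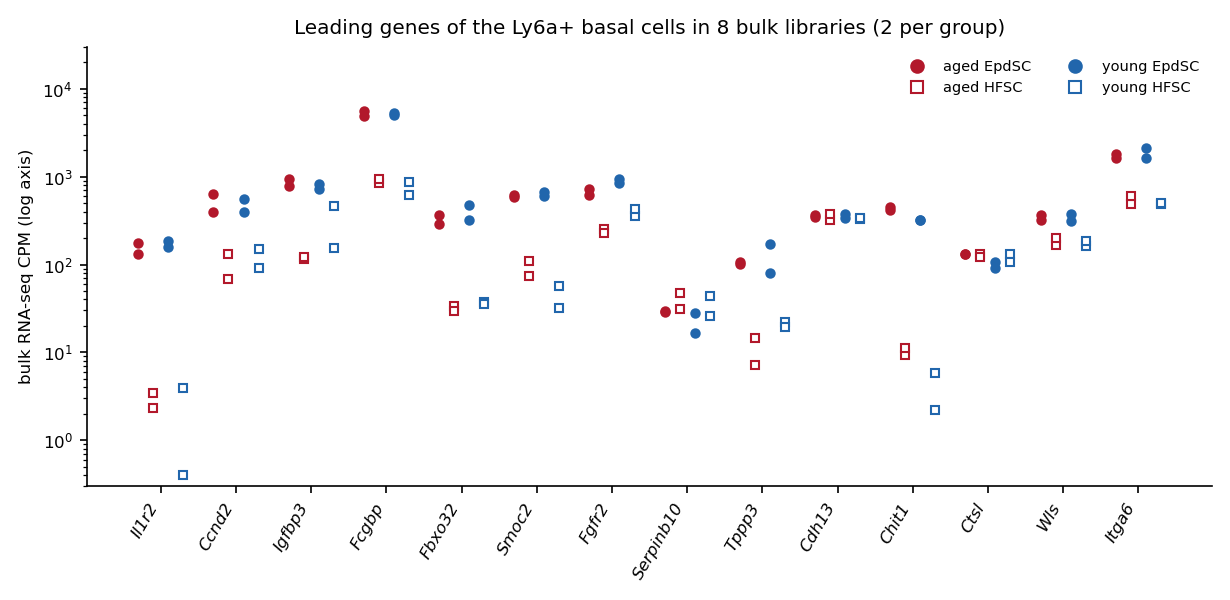
Bulk RNA-seq level in CPM (log axis) of the 14 leading genes in each library, EpdSC as filled circles and HFSC as open squares, aged in red and young in blue, 2 libraries per group. EpdSC libraries lie above HFSC libraries in 11 genes at both ages, while Serpinb10, Cdh13 and Ctsl show no such gap.

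ATAC-seq counts transposase insertions and so reads open chromatin, here as counts in windows whose centre lay within 500 bases of a RefSeq gene start. With 1 library per group no test exists, and the aged pair was shifted as a whole: 90.2% of promoters were higher in aged EpdSC than in aged HFSC, with a median log2 ratio of 1.00, against 54.0% and a median of 0.06 in the young pair. Of the 14 leading genes 8 had a start and 20 or more counts. All 8 were higher in the aged EpdSC library, which is near that background, and 5 of 8 in the young one. Chit1, Il1r2 and Igfbp3 stood out in size. Their promoters, the 250 bases before the start from RefSeq on GRCm38.p6, the build of mm10, are shown because these genes had the largest promoter ratios of the 8, with a match to the AP-1 motif TGANTCA in capitals. For Il1r2 and Igfbp3 that start lies inside the gene span given above.
Chit1 promoter (chr1:134110992-134111241, plus strand): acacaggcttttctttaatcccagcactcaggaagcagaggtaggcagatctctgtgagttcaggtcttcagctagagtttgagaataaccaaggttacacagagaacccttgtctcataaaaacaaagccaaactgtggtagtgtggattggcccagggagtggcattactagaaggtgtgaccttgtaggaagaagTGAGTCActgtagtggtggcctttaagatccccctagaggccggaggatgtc
Il1r2 promoter (chr1:40085843-40086092, plus strand): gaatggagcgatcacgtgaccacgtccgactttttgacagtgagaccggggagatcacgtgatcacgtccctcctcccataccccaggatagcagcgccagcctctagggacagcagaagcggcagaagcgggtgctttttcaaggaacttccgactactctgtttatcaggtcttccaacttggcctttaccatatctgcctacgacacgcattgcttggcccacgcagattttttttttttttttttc
Igfbp3 promoter (chr11:7213924-7214173, minus strand): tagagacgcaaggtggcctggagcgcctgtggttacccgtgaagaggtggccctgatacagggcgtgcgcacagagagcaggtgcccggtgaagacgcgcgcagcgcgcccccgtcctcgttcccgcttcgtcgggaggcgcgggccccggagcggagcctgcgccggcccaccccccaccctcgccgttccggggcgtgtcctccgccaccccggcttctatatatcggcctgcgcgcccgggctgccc

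The Chit1 promoter had 263 counts in aged EpdSC against 13 in aged HFSC, a log2 ratio of 2.87 (95% counting interval 2.07 to 3.80), and 322 counts in young EpdSC against 28 in young HFSC, a ratio of 3.02 (95% counting interval 2.46 to 3.63). Il1r2 had 302 counts in aged EpdSC against 25 in aged HFSC and 541 counts in young EpdSC against 119 in young HFSC, with log2 ratios of 2.13 (95% counting interval 1.54 to 2.78) and 1.68 (95% counting interval 1.39 to 1.98). Igfbp3 had 380 counts in aged EpdSC against 23 in aged HFSC and 470 counts in young EpdSC against 135 in young HFSC, with log2 ratios of 2.58 (95% counting interval 1.97 to 3.25) and 1.29 (95% counting interval 1.01 to 1.58). All 3 lay above the median of their pair at both ages. The marker H2-M2 also did, with 118 counts in aged EpdSC against 3 in aged HFSC and 178 counts in young EpdSC against 9 in young HFSC. Fcgbp, Ctsl and Serpinb10 were lower in the young EpdSC library, with log2 ratios of -0.60 (95% counting interval -0.82 to -0.39), -0.42 (95% counting interval -0.61 to -0.22) and -0.82 (95% counting interval -1.05 to -0.60). The AP-1 motif, searched on both strands, occurred once in the Chit1 promoter and not in the other 2 shown, and 6.75% of 32817 RefSeq promoters of the same length held it.

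Genes at the low end were those of neighbouring layers and of the upper follicle, several of them used by the rule. Krt79 was at 0 and Krt10 and Krt1 were limited by it. Outside the rule, Defb6, a beta-defensin, was at 47.0 CPM in aged members against 627 CPM in the other aged cells, and 189.9 CPM in young members against 2855 CPM in the other young cells. Krtdap, a protein of differentiating keratinocytes, had 211 CPM in aged and 181 CPM in young members, against 2347 and 2523 CPM in the other cells. Ly6g6c, the metallothionein gene Mt4, the cystatin gene Cst6, the keratin Krt77 and the fatty acid binding protein gene Fabp5 followed, between 13.1 CPM (Ly6g6c, aged) and 95.5 CPM (Cst6, young) in members. Apart from the rule genes Krt1, Krt10 and Krt79, the 7 suprabasal and 4 upper follicle markers with 50 CPM or more were all lower in members in both libraries, beside 33.2% of all genes, a description without a test since the rule divided these cells by markers of the same 2 lists. Of the 7 lowest genes outside the rule, bulk called 4 higher and 1 lower in aged EpdSC, and 5 higher and 0 lower in young EpdSC. The shares of all genes were 12.2% and 11.9% in aged and 13.0% and 13.1% in young mice. Krtdap, Mt4, Krt77 and Ly6g6c were called higher at both ages, with log2 fold changes of 2.04 aged and 3.03 young for Krtdap, and Fabp5 in young mice. Cst6 was called lower in aged EpdSC (-1.17, edgeR adjusted p = 0.0250), a call lost without aged HFSC replicate 2 (-0.57) or without aged EpdSC replicate 1 (-0.80).

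The 10 genes with most UMIs held 12.8% of the UMIs of aged and 10.5% of those of young members. They were Malat1, a nuclear long RNA, Krt14, Apoe, Lgals7, Krt15, mt-Atp6, Rps19, Rpl41, Rpl13 and mt-Co3. Malat1 reached 22489 CPM in aged and 16592 CPM in young members, and Apoe, a lipid carrier, 15349.7 and 11199.6 CPM. Krt15, a keratin of basal and bulge cells, was at 10715 and 10418 CPM in members, against 8314 and 8204 CPM in the other cells. In bulk it was not called between EpdSC and HFSC, with log2 fold changes of -0.33 ± 0.183 (SE, adjusted p = 0.236 by edgeR) in aged and -0.21 ± 0.183 (SE, adjusted p = 0.475 by edgeR) in young mice.

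Members were not uniform. The 10 genes that varied most between cells beyond counting error, in both libraries, were Malat1, Krt17, Krt15, Apoe, Krt14, Ccl27a, Actb, Sostdc1, Mt2 and S100a6. Krt17, a keratin of the follicle and of stressed epidermis, was found in 26.5% of aged and 44.3% of young members, and in 17.5% and 18.5% at 1000 UMIs per cell. Sostdc1, a secreted BMP and WNT inhibitor, was found in 26.0% and 38.9%, but when present it was abundant. Members with 3 or more Sostdc1 UMIs, called Sostdc1-rich here, made up 131 of 985 aged members (13.3%, 11.2 to 15.6) and 253 of 958 young ones (26.4%, 23.6 to 29.3). Members without a Sostdc1 UMI made up 729 (74.0%) and 585 (61.1%). Thinned to 1000 UMIs per cell, 19.6% of aged and 29.0% of young members had a Sostdc1 UMI, and 6.19% and 12.7% had 3 or more. The share was thus lower in the aged library after thinning too, with 1 library per age and no test. Membership was still set at full depth, which differed between the libraries. Among members with 3 or more Ly6a UMIs, 20.3% of aged and 17.9% of young ones had a Sostdc1 UMI after thinning. With 1 and with 2 Ly6a UMIs the aged share was the lower one.

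Sostdc1-rich members carried a second set of genes, chosen here because they differed most between both kinds of member in both libraries. Fst, which encodes the activin and BMP antagonist follistatin, was at 348 CPM in aged Sostdc1-rich members against 30.9 CPM in aged members without Sostdc1, and 385 against 6.68 CPM in the young library. Aqp3, the water and glycerol channel, was at 453 CPM in aged Sostdc1-rich members against 73.3 CPM in aged members without Sostdc1, and 435 against 22.6 CPM in the young library. Aldh3a1, an aldehyde dehydrogenase, was at 597 CPM in aged Sostdc1-rich members against 99.1 CPM in aged members without Sostdc1, and 421 against 18.0 CPM in the young library. The growth factor Ptn was at 759.9 CPM in aged Sostdc1-rich members against 262 CPM in aged members without Sostdc1, and 684 against 142 CPM in the young library. Hpgd, which breaks down prostaglandins, the retinol dehydrogenase Adh7, the homeobox gene Barx2, Krt17 and the beta-defensin Defb1 stood higher as well, and with Fam132a, Emb, Cebpb, Gstm5, Ninj1 and Il11ra1 they made 15 genes beside Sostdc1.

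Of the 14 leading genes, 12 were lower in Sostdc1-rich members than in members without Sostdc1 in both libraries, 5 of them past 2-fold, and Fcgbp and Cdh13 were higher. Il1r2 was at 35.1 CPM in aged Sostdc1-rich members against 347 CPM in aged members without Sostdc1, and 31.1 against 299.9 CPM in the young library. Igfbp3 was at 60.7 CPM in aged Sostdc1-rich members against 317 CPM in aged members without Sostdc1, and 6.22 against 332 CPM in the young library. Chit1 was at 15.96 CPM in aged Sostdc1-rich members against 189.6 CPM in aged members without Sostdc1, and 21.8 against 206 CPM in the young library. Il33, an alarmin cytokine kept in the nucleus, was at 51.1 CPM in aged Sostdc1-rich members against 262 CPM in aged members without Sostdc1, and 47.7 against 169 CPM in the young library, and Ndufa4l2, a mitochondrial protein known to be induced under low oxygen, at 223 CPM in aged Sostdc1-rich members against 1430.3 CPM in aged members without Sostdc1, and 53.9 against 758 CPM in the young library. With Igfbp7, Gja1, Clasrp, Calm5, Slc27a3, Rora, Ctsl, Cpe, Sparc, Mt2 and Ndfip2 these made 16 genes. Both kinds had nearly the same depth, with medians of 2194 UMIs in rich members and 2331 in those without Sostdc1 in the aged library, and 3604 and 4053 in the young one.

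**Figure D3:**
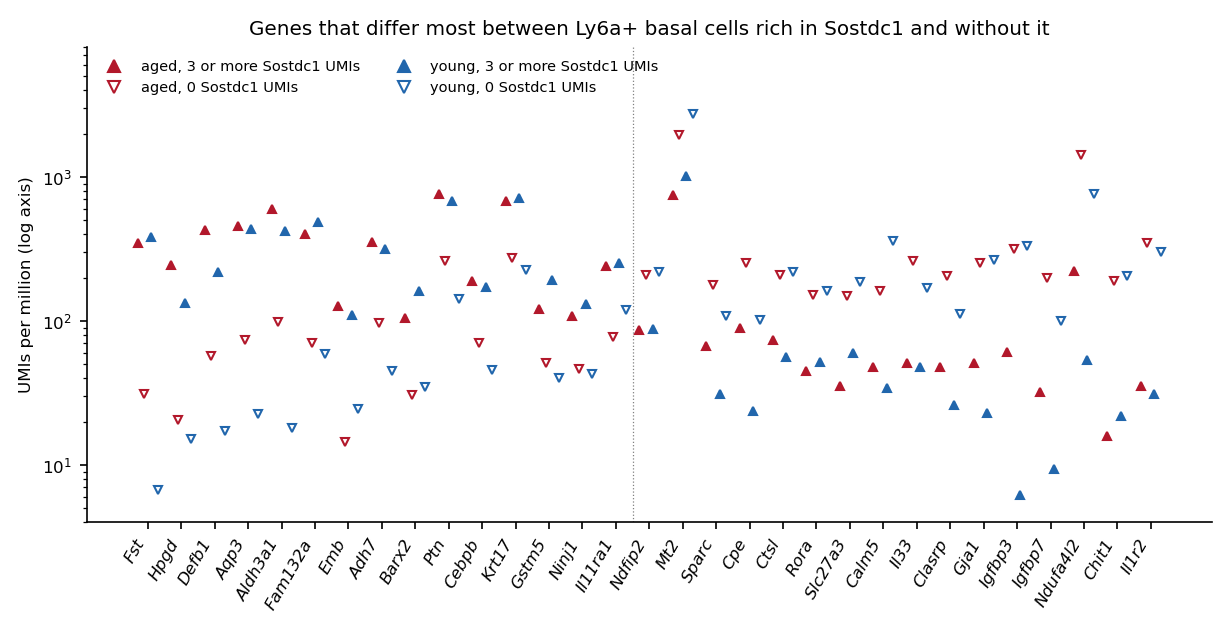
Level in CPM (log axis) in members with 3 or more Sostdc1 UMIs (filled triangles) and with 0 (open triangles), aged in red and young in blue, for the 15 genes highest in the first (left of the dotted line) and the 16 highest in the second. The genes were chosen for these gaps, and Fst and Igfbp3 show the widest ones in the young library.

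Bulk RNA again gave samples outside the choice. Of the 15 genes of Sostdc1-rich members edgeR called 10 lower in EpdSC at each age and 1 higher (Defb1), with a median log2 fold change of -2.17 in aged and -1.91 in young mice. Over all genes 11.9% were called lower and 12.2% higher in aged mice, and 13.1% and 13.0% in young mice. The medians over all genes were -0.09 and -0.06. Fst had 24.8 and 42.1 CPM in aged EpdSC against 252 and 399.6 CPM in aged HFSC, and 30.9 and 22.9 CPM in young EpdSC against 464 and 306 CPM in young HFSC, with log2 fold changes of -3.28 ± 0.317 (SE, adjusted p = 1.4e-05 by edgeR) and -3.84 ± 0.325 (SE, adjusted p = 4.24e-06 by edgeR). Ptn fell by 4.54 and 4.15, Aqp3 by 3.36 and 2.95 and Krt17 by 2.78 and 2.56 on the log2 scale. Sostdc1 itself had 57.4 and 84.8 CPM in aged EpdSC against 150.5 and 172 CPM in aged HFSC, and 73.3 and 89.1 CPM in young EpdSC against 159 and 275 CPM in young HFSC, with log2 values of -1.18 ± 0.254 (SE, adjusted p = 0.00488 by edgeR) and -1.42 ± 0.255 (SE, adjusted p = 0.00143 by edgeR), and the aged call was lost without aged EpdSC replicate 1 (edgeR adjusted p = 0.0607). Hpgd was called lower at both ages, and its aged call was lost without aged HFSC replicate 2 or aged EpdSC replicate 1 (edgeR adjusted p = 0.0577 and 0.0510).

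Of the 16 genes of members without Sostdc1, 11 were called higher in EpdSC at each age, while 3 were called lower in aged mice (Igfbp7, Cpe and Sparc) and 2 in young mice (Igfbp7 and Sparc). Over all genes 12.2% were called higher and 11.9% lower in aged mice, and 13.0% and 13.1% in young mice. The median log2 fold change of the 16 was 2.11 in aged and 1.90 in young mice, beside -0.09 and -0.06 over all genes. Il33 had 347 and 232.3 CPM in aged EpdSC against 6.81 and 7.67 CPM in aged HFSC, and 264 and 222 CPM in young EpdSC against 3.03 and 3.30 CPM in young HFSC, with log2 values of 5.32 ± 0.228 (SE, adjusted p = 4.74e-08 by edgeR) and 6.26 ± 0.243 (SE, adjusted p = 1.92e-08 by edgeR). Ndufa4l2 rose by 4.89 and 5.20 and the connexin gene Gja1 by 1.18 and 1.43, but the aged Gja1 call was lost without aged HFSC replicate 1 or aged EpdSC replicate 1 (edgeR adjusted p = 0.0716 and 0.0651). The aged Cpe call was lost without aged HFSC replicate 2 or either aged EpdSC library (edgeR adjusted p between 0.0543 and 0.135). Sparc, a matrix protein that fibroblasts also make, had the opposite direction, with 97.7 and 119.6 CPM in aged EpdSC against 347 and 391 CPM in aged HFSC, and 55.2 and 61.4 CPM in young EpdSC against 399.7 and 440.1 CPM in young HFSC.

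The rich share followed the edges of the rule in the young library. Young cells that met every other clause were Sostdc1-rich in 51.4% with 0 Ly6a UMIs, just outside the rule, and in 38.0%, 27.1% and 15.3% with 1, 2 and 3 or more. In the aged library these shares were 13.0%, 13.9%, 11.4% and 14.2%, while the cells with 0 Ly6a UMIs were shallower, with a median of 1772 UMIs beside 2220, 2302 and 2561. Thinned to 1000 UMIs, cells with a Sostdc1 UMI made up 26.5%, 20.3%, 17.6% and 20.3% of the same 4 classes in the aged library. In the young one they made up 53.9%, 39.9%, 30.8% and 17.9%. The Ly6a classes were still set at full depth, and the cells with 0 Ly6a UMIs had the highest thinned share at both ages. Along the other clause the shares were lower in step at both ages. With 0, 1 and 2 or more of Gpnmb, Mmp3, Thy1 and Serpinb7 detected they were 20.3%, 5.25% and 3.01% in aged cells, and 33.6%, 8.12% and 1.22% in young cells. Median depth went the opposite way, with 2151.5, 2483 and 2863.5 UMIs in aged and 3739, 4578 and 4925.5 UMIs in young cells, and its part in the shares was not tested. Thinned to 1000 UMIs, cells with a Sostdc1 UMI made up 27.7%, 10.3% and 7.23% in the aged and 36.2%, 10.7% and 7.32% in the young library.

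**Figure D4:**
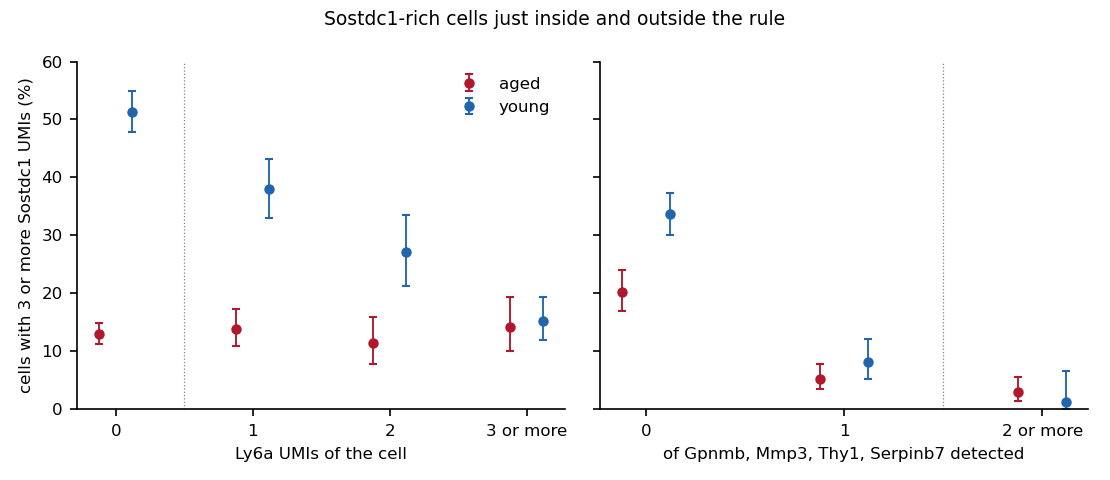
Percent of cells with 3 or more Sostdc1 UMIs, with exact 95% binomial intervals, by the number of Ly6a UMIs (left) and by how many of Gpnmb, Mmp3, Thy1 and Serpinb7 were detected (right), in cells that met every other clause, aged in red and young in blue. The dotted lines mark the rule, and the young shares go from 51.4% with 0 Ly6a UMIs to 15.3% with 3 or more.

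Other values at the edges of the rule were as follows. Cells with 0 Ly6a UMIs, 1381 aged and 773 young, had Krt14 at 12265 and 8912 CPM and Il1r2 at 182 and 84.1 CPM, and their median depth was 1772 and 3042 UMIs. Cells with exactly 1 Ly6a UMI had Il1r2 at 264 CPM in the aged and 189 CPM in the young library. The 332 aged and 82 young cells that failed only through 2 or more Gpnmb-state genes had Il1r2 at 325 and 272 CPM, Ccnd2 at 644 and 978 CPM and Krt14 at 22308 and 18063 CPM, close to or above the members. Cells past the Krt1 and Krt10 limit alone, 246 aged and 207 young, had Il1r2 at 37.6 and 26.6 CPM and Ccnd2 at 159.9 and 152 CPM, and the members were 7.47 and 8.27-fold higher for Il1r2. Chit1 did not follow this, with 163 and 177 CPM there against 156 and 158 CPM in members. The limit on 6 immediate early genes removed 7 aged and 145 young cells that met every other clause. Il1r2 was at 191 CPM in the young cells with 3 of these genes, just inside, and 220.5 CPM in those with 4. Near the keratin limit, cells with 0.1 to 0.2% of Krt1 and Krt10 had Il1r2 at 185 CPM in the aged and 233 CPM in the young library, and cells with 0.2 to 0.3% at 77.1 and 253 CPM.

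Between the ages, few genes differed by size among the members. Of 2545 genes with 50 CPM or more in either library, 25 were past 2-fold higher in aged members (0.982%) and 18 past 2-fold lower (0.707%). The median log2 ratio was -0.03, and in the other cells -0.003. The ratios rest on 1 library per age and have no test. The groups of cells also differ in their Sostdc1-rich share, so ratios within members without Sostdc1 are given beside some of them and drawn for all 24 named below. The groups differ at the edges of the rule too. One of Gpnmb, Mmp3, Thy1 and Serpinb7 was detected in 457 of 985 aged and 271 of 958 young members, and 498 and 358 had a single Ly6a UMI. The ratios were not adjusted for these edges. Of the 24 genes named here, 12 at each end with 100 CPM or more, edgeR called 0 between aged and young bulk EpdSC, where 0.0559% of all genes were called higher and 0.028% lower. An unadjusted p under 0.05 was reached by 6 of the 12 highest and 3 of the 12 lowest, and DESeq2 called Cpe and Ndufa4l2. With no filter on low counts edgeR called 159 genes higher and 80 lower, among them 7 of the 24. Krt1, Serpinb7, Ndufa4l2, Postn and Sult5a1 then had the direction of their 10x ratio, and Dbp and Tsc22d3 the opposite one. Serpinb7 was also called without young HFSC replicate 2 (edgeR adjusted p = 0.0489).

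Glul, the glutamine synthetase gene, had 253 CPM (95% interval 233 to 274) in aged members, against 67.1 CPM (95% interval 59.2 to 75.8) in young members, a ratio of 3.77. The ratio was 3.47 in the other cells and 3.68 in members without Sostdc1. Sgk1, a serum- and glucocorticoid-regulated kinase, had 153 CPM (95% interval 138 to 170.1) in aged members, against 44.1 CPM (95% interval 37.8 to 51.3) in young members, a ratio of 3.48 beside 2.16 in other cells. Tsc22d3, which encodes the glucocorticoid-induced leucine zipper, had 191 CPM (95% interval 173 to 209) in aged members, against 62.7 CPM (95% interval 55.1 to 71.1) in young members. Of these, Glul and Tsc22d3 had young EpdSC libraries that differed from each other over 3-fold in bulk: Glul had 249.3 and 425 CPM in aged EpdSC against 151 and 487 CPM in young EpdSC, and Tsc22d3 had 94.4 and 101 CPM against 80.2 and 381 CPM. Sgk1 had 149.9 and 189 CPM in aged EpdSC against 96.6 and 124 CPM in young EpdSC, with a log2 value of 0.62 ± 0.238 (SE, adjusted p = 1.00 by edgeR).

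Ndufa4l2 was the most abundant of the 12, with 1176 CPM (95% interval 1133 to 1221) in aged members, against 536 CPM (95% interval 513 to 559) in young members, a ratio of 2.20, beside 3.31 in the other cells and 1.89 in members without Sostdc1. Its bulk level was 231 and 299.6 CPM in aged EpdSC against 163 and 87.3 CPM in young EpdSC, without overlap, and the log2 fold change of 1.08 ± 0.309 (SE, adjusted p = 0.625 by edgeR) was not called by edgeR. Cpe, a carboxypeptidase that trims peptide hormones, had 223 CPM (95% interval 205 to 243) in aged members, against 79.2 CPM (95% interval 70.6 to 88.6) in young members, a ratio of 2.82, and thinned to 1000 UMIs its log2 ratio was 0.94. In bulk Cpe had 128 and 116 CPM in aged EpdSC against 79.2 and 80.9 CPM in young EpdSC, with a log2 value of 0.60 ± 0.138 (SE, adjusted p = 0.284 by edgeR). Clu, the extracellular chaperone clusterin, Acp5, an acid phosphatase, Igfbp7, a secreted growth factor binding protein, and the RNA-binding and splicing genes Rbm4b and Clasrp had ratios of 2.71, 2.48, 2.20, 2.12 and 2.07. Krt1 and Serpinb7 had ratios of 3.47 and 2.93, within the limits the rule set on both.

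At the other end Dbp, a transcription factor of the circadian clock, had 26.3 CPM (95% interval 20.1 to 33.7) in aged members, against 134 CPM (95% interval 123 to 147) in young members, a ratio of 0.195 beside 0.205 in other cells. In bulk Dbp varied between replicates, with 26.8 and 93.6 CPM in aged EpdSC against 17.5 and 53.2 CPM in young EpdSC, and pointed the opposite way, with a log2 fold change of 0.77 ± 0.644 (SE, adjusted p = 1.00 by edgeR). Slco2a1, a prostaglandin transporter, had 70.8 CPM (95% interval 60.4 to 82.4) in aged members, against 176 CPM (95% interval 163 to 189) in young members, and in bulk 308 and 344 CPM in aged EpdSC against 439 and 417 CPM in young EpdSC, or -0.39 ± 0.152 (SE, adjusted p = 1.00 by edgeR) on the log2 scale. Pkib, an inhibitor of protein kinase A, had 44.9 CPM (95% interval 36.8 to 54.3) in aged members, against 153 CPM (95% interval 140.5 to 165) in young members, and in bulk 60.5 and 49.1 CPM against 97.2 and 66.2 CPM. Both had the same direction in both readouts, without a call in bulk. Defb6, Ifi27l2a, H2-Q6, Cbr2 and Sult5a1 had ratios of 0.248, 0.302, 0.352, 0.434 and 0.445, and H2-Q7, Tsc22d1 and Calm5 stayed just inside 2-fold at 0.512, 0.519 and 0.520.

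Postn depended on which members were compared. This matrix protein gene of the follicle had 37.7 CPM (95% interval 30.3 to 46.4) in aged members, against 147 CPM (95% interval 135 to 159.7) in young members, a ratio of 0.256, with a UMI in 64 of 985 aged and 243 of 958 young members. In members without Sostdc1 the ratio was 0.883, and in Sostdc1-rich members 0.172. The other 11 low genes were past 2-fold lower within members without Sostdc1. Calm5 was at 0.447 there and at 1.40 in rich members, the 1 gene of the 24 with opposite directions in both kinds.

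The 24 genes were not particular to the members by direction. All 12 high and all 12 low genes had the same direction in the other cells, 9 and 7 of them past 2-fold. They also had it in barcodes with 10 to 100 UMIs, which are too shallow to count as cells, with 9 and 6 past 2-fold, and the part of free RNA was not tested. In bulk EpdSC 9 of the 12 high genes were positive and 8 of the 12 low genes negative, beside 49.99% of all genes positive. Thinned to 1000 UMIs per cell, 44 of 2639 genes were past 2-fold higher and 49 lower. Here the rule was applied anew to the thinned counts, so the members were not the same cells.

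**Figure D5:**
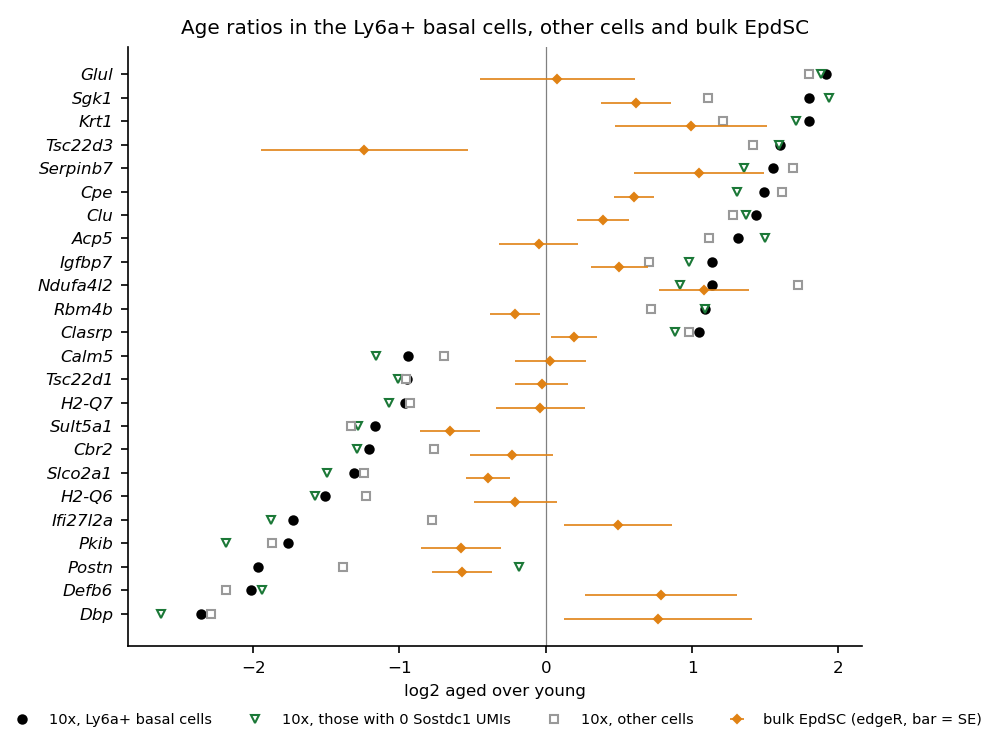
Log2 ratio of aged over young for the 24 named genes in Ly6a+ basal cells (black circles), members with 0 Sostdc1 UMIs (green triangles) and other cells (grey squares) of the 10x libraries, and the edgeR log2 fold change in bulk EpdSC with its SE (orange). The single-cell points share their side of 0, Postn is near 0 in members without Sostdc1, and the bulk values run from -1.24 (Tsc22d3) to 1.08 (Ndufa4l2).

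Groups of genes gave the wider picture of the cells. In adhesion to the basement membrane 11 of 13 genes were higher in members than in the other cells in both libraries and 0 lower. The 11 include Itga6, already chosen above as a leading gene for this ratio. Of all genes 37.6% were higher and 33.2% lower. The median log2 ratio of the list was 0.40 in the aged and 0.46 in the young library. This was not particular to the members. The list summed to 3098 CPM in aged and 3023 CPM in young members. Cells that failed only through 2 or more Gpnmb-state genes had 3097 and 3131 CPM, and cells past the Krt1 and Krt10 limit alone 1747 and 1754 CPM. Itga3, the laminin receptor chain, had 43.2 CPM in aged and 46.4 CPM in young members, against 21.7 and 25.5 CPM in other cells. Col17a1, the collagen of the hemidesmosome, had 659 and 568 CPM in members, against 508 and 407 CPM in other cells. Lamb3 and Itgb4 had ratios of 1.39 and 1.42 in the aged and 1.61 and 1.46 in the young library. In bulk 3 of 24 genes of the list were called higher in EpdSC and 5 lower at each age. The shares of all genes were 12.2% and 11.9% in aged and 13.0% and 13.1% in young mice. Itga6, Itga3 and Plec, which links keratin to the hemidesmosome, were the 3 called higher, Itgb6, Lamb1, Col4a1, Col4a2 and Bcam the 5 called lower, and Col17a1 was called at neither age (edgeR adjusted p = 0.457 and 0.449).

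Chemokine and cytokine genes were higher in members in 7 of 8 cases in both libraries, beside 37.6% of all genes. The 7 include the receptor gene Il1r2, already chosen above as a leading gene for this ratio. Ccl27a, the skin-homing chemokine that the files list under 3 gene copies, was at 3811 CPM in aged members against 2529 CPM in the other aged cells, and 5038 CPM in young members against 3983 CPM in the other young cells. Cxcl16 and Il1rn, the interleukin-1 receptor antagonist, had ratios of 1.58 and 1.33 in the aged and 1.34 and 1.44 in the young library. Bulk called 9 of 20 genes of the list higher in EpdSC and 2 lower at each age. Beside this, 12.2% of all genes were called higher and 11.9% lower in aged mice, and 13.0% and 13.1% in young mice. Il1rn rose by 4.55 in aged and 5.88 in young EpdSC over HFSC, and Il6ra by 4.50 and 5.49. Cxcl14 was called lower, with log2 fold changes of -2.74 and -1.60, while its 10x level was 612 CPM in aged members against 492 CPM in the other aged cells, and 1065 CPM in young members against 764 CPM in the other young cells.

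Among epidermal transcription factors 8 of 16 were higher and 7 lower in members, beside 37.6% and 33.2% of all genes. Trp63, the master regulator of stratified epithelia, was at 569 CPM in aged and 557 CPM in young members, against 449.8 and 450.0 CPM in other cells. Gata3 was at 493 and 601 CPM, against 443 and 483 CPM. Bulk called 14 of 23 higher and 4 lower in aged EpdSC, and 16 and 4 in young EpdSC. The shares of all genes were 12.2% and 11.9% in aged and 13.0% and 13.1% in young mice. Klf5 rose by 3.49 and 3.65, Sox6 by 5.35 and 6.32 and Gata3 by 2.22 and 2.70 over HFSC in aged and young mice.

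WNT, BMP and TGF-beta genes were mixed, with 4 of 9 higher and 4 lower in members, beside 37.6% and 33.2% of all genes. In bulk 11 of 29 were called higher and 11 lower in aged EpdSC, and 12 and 11 in young EpdSC. The bulk shares of all genes were 12.2% and 11.9% in aged and 13.0% and 13.1% in young mice. The ligands Wnt10a, Wnt4 and Wnt3 were on the high side. Wnt10a had 133 CPM in aged and 157 CPM in young members, against 99.4 and 91.9 CPM in other cells, and rose by 2.73 and 2.82 in aged and young bulk EpdSC. Wnt3 rose by 5.88 and 7.28 and Wnt4 by 2.37 and 2.45 there. The BMP targets Id1 and Id3 were called lower in EpdSC, with log2 fold changes of -1.85 and -3.01 for Id1 and -1.85 and -2.35 for Id3.

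Genes of MHC class I and antigen presentation were mostly lower in aged than in young members, by modest amounts. Of 16 genes 2 were higher in aged members, beside 45.6% of all genes, with a median log2 ratio of -0.58. H2-Q6 and Psmb10 were past 2-fold lower. H2-K1 had 1107 CPM (95% interval 1065 to 1151) in aged members, against 1713 CPM (95% interval 1673 to 1755) in young members, and B2m, the class I light chain, had 3358 CPM (95% interval 3284 to 3432) in aged members, against 4091 CPM (95% interval 4027 to 4155) in young members. The median was -0.47 in the other cells and -0.63 in members without Sostdc1. In bulk EpdSC 14 of 21 genes were positive, beside 49.99% of all genes, with a median log2 fold change of 0.10. EdgeR called 0 of the 21 between ages and 0 had an unadjusted p under 0.05. Between populations the list was high in EpdSC, with 15 of 21 called in aged and 17 in young mice and 0 lower. Beside this, 12.2% of all genes were called higher in aged and 13.0% in young mice. H2-Q6 and H2-Q7 are near-identical copies whose reads the counting could divide.

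Immediate early genes were limited by the rule, and the 10x and bulk values had opposite directions. Of 13 genes 2 were higher in aged members, beside 45.6% of all genes, with a median log2 ratio of -0.48 beside -1.01 in other cells. Fos had 371 CPM in aged and 588 CPM in young members, and Jun 200.4 and 313 CPM. In bulk EpdSC 22 of 24 were positive with age, beside 49.99% of all genes, with a median log2 fold change of 0.55. Of the 24, 1 was called higher, beside 0.0559% of all genes, and Fos had 3638 and 3515 CPM in aged against 2513 and 2068 CPM in young EpdSC, or 0.64 ± 0.315 (SE, adjusted p = 1.00 by edgeR) on the log2 scale.

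Housekeeping lists differed little in size. Ribosomal protein genes were higher in members in 33 of 42 cases, with median log2 ratios of 0.02 in the aged and 0.04 in the young library. Nuclear genes of oxidative phosphorylation were lower in 18 of 32 and higher in 3, with medians of -0.05 and -0.02. Over all genes 37.6% were higher and 33.2% lower. In EpdSC over HFSC, bulk called 31 of 42 ribosomal genes higher in aged and 29 in young mice and 0 lower. Beside this, 12.2% of all genes were called higher in aged and 13.0% in young mice. Metallothionein and heat shock genes were higher in aged members in 4 of 14 cases, beside 45.6% of all genes, with a median log2 ratio of -0.23. Mt2, which binds metal ions, had 1709 CPM (95% interval 1657 to 1763) in aged members, against 2222 CPM (95% interval 2176 to 2269.8) in young members.

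Markers of other cells of the skin were low in level in the members, but not all were lower than in the other cells. The endothelial, Langerhans and myeloid, and fibroblast lists summed higher in members in both libraries, and the other lists given here lower. Merkel cell markers summed to 0.424 CPM in aged and 0 CPM in young members, and Krt8 was found in 0 of 985 aged and 0 of 958 young members, which allows shares of cells with a Krt8 UMI of up to 0.374% and 0.384%, a limit on detection at these depths and not on expression. T cell markers summed to 2.12 and 2.06 CPM with Cd3e at 0, melanocyte markers to 6.36 and 6.19 CPM with Pmel, Tyrp1, Tyr, Kit and Sox10 at 0, and pericyte and muscle markers to 5.09 and 5.94 CPM. Endothelial markers summed to 18.2 and 20.6 CPM with Cdh5, Kdr and Cldn5 at 0, against 12.8 and 15.2 CPM in the other cells. Langerhans and myeloid markers summed to 36.4 and 74.3 CPM with Lyz2 and Itgax at 0, against 25.5 and 67.1 CPM in the other cells. Fibroblast markers summed to 167 and 91.9 CPM, of which Sparc alone gave 162 and 91.6 CPM, while Col1a2, Col3a1, Lum and Pdgfra were at 0. In the other cells the fibroblast list summed to 137 and 90.3 CPM. Sebaceous markers summed to 161 and 139 CPM, against 408 and 349 CPM in the other cells.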

How the data were processed

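The members, gene lists and tests were chosen with earlier results of these data known. The deposited 10x files hold UMI counts per gene and barcode for 737280 barcodes per library, made with Cell Ranger on mm10 per the submitters' processing notes, with no cell filter. The labels give 4000 captured cells per library, beside the 4351 aged and 4045 young cells kept here. The deposited bulk files hold whole read counts per gene (STAR, mm10, per the submitters' processing notes), 25126808 to 35905505 per library, and the deposited ATAC files hold counts in 500-base windows (Bowtie, per the same notes), 8456209 to 37912498 over non-overlapping windows. Versions, strand setting, annotation release and duplicate removal are not stated in any source at hand, so reads of a gene and its antisense partner cannot be told apart. Nothing says that replicates come from separate animals, so p-values measure the spread between these libraries.

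Cells were summed and scaled to CPM, and thinned to 1000 UMIs (seed 1) where shares were compared. Genes needed 50 CPM in the higher set to be counted and 100 CPM to be named. Named were the markers and rule genes, the 15 highest and 10 lowest ratios of members over other cells, the 12 highest and 12 lowest of aged over young members with intervals apart, the 10 genes with most UMIs, the 10 most variable ones, and the highest or 2-fold members of each list. Other genes named from lists and the Sostdc1 split were chosen after their values were seen. Bulk counts were tested in 1 fit of 8 libraries with edgeR 4.0.16 (TMM, filterByExpr, quasi-likelihood, 21464 genes, a call being a Benjamini-Hochberg adjusted p below 0.05), with DESeq2 1.42.0 as an alternative, in R 4.3.3. EdgeR's SE is of the log2 fold change. ATAC ratios are scaled by library total. The scripts (Python 3.11.15, scipy 1.17.1, scanpy 1.11.5) were tested on simulated data. Copies such as H2-Q6 and H2-Q7, Ccl27a, the Ly6 family and ribosomal protein genes can share reads, so their values are uncertain.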

Additional observations from a re-analysis of the deposited data

How the results depend on the processing

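No called value of a named gene changed sign under the alternatives run. The share of aged cells that were members was 17.582% thinned to 1000 UMIs, 24.326% at 2000 UMIs, 11.193% at 2 Ly6a UMIs and 19.903% at a 0.1% keratin limit, and of young cells 17.478% thinned, 14.833% at 2 Ly6a UMIs and 25.524% at a 5% mitochondrial limit. Between aged and young members 44 of 2639 genes were past 2-fold higher and 49 lower after thinning, with members chosen anew in the thinned counts. At 20 CPM, 58 of 5298 genes were higher and 68 lower. Of the 24 age genes 7 moved after thinning and 7 in members with 0 Sostdc1 UMIs. Members exceeded other cells past 2-fold in 2 genes after thinning, 3 at 2 Ly6a UMIs and 3 at 20 CPM (89 lower). In alternatives chosen after seeing the data there were 2 without the highest doublet scores and 4 in members with 0 Sostdc1 UMIs. In the young ATAC pair 4 of 8 promoters were higher within 1000 bases.

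Age calls in bulk EpdSC numbered 12 higher and 6 lower. They were 159 and 80 with no filter on low counts, 3 and 0 with edgeR on the 4 EpdSC libraries alone, and 62 and 24 by DESeq2. Without 1 replicate each they ran from 4 (without aged EpdSC replicate 2) to 21 (without young HFSC replicate 2) higher, and from 2 to 10 lower. EpdSC over HFSC gave 1784 to 3007 higher and 1822 to 2520 lower genes in aged mice, and 1685 (without young EpdSC replicate 1) to 3216 higher and 1983 to 2745 lower in young mice. The lone library left in a group was then taken to vary like the others. The causes were not tested.

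Replicate numbers are shared between groups, but no label calls them a pairing. The log2 CPM differences between the replicates of a group correlated between groups at -0.0423 to 0.227. With the replicate block 2802 genes were higher and 2592 lower in aged, 2956 and 2814 in young mice, and 16 and 7 between ages. It lost 0 calls of named genes and gained 4, 5 and 2. Depth limits the aged library, where 1 UMI in the members is 0.424 CPM.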

Other observations

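Krt6a, a keratin of wounded and follicular epidermis, was uneven among the aged Ly6a+ basal cells. It had 153 UMIs in 52 of 985 aged members, of which 102 lay in 10 cells and 44 in 1 cell, against 3 UMIs in 2 of 958 young members. These levels came to 64.8 CPM in aged and 0.774 CPM in young members. Krt6a shares long stretches with Krt6b, so the value is uncertain. In bulk EpdSC its log2 fold change between the ages was 1.60 and was not called by edgeR.

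The 3 Notch pathway genes with 50 CPM or more stood lower in members in both libraries, beside 33.2% of all genes. The Notch target Hes1 was at 84.3 CPM in aged and 90.8 CPM in young members, against 141 and 158 CPM in the other cells. Nrarp, a Notch-induced inhibitor, was at 29.2 and 19.9 CPM, against 55.9 and 63.2 CPM, and the receptor gene Notch1 at 58.5 and 66.3 CPM, against 67.8 and 80.5 CPM. The WNT, BMP and TGF-beta list summed to 3943 CPM in Sostdc1-rich aged members against 1319 CPM in aged members without Sostdc1, and to 4012 against 1423 CPM in young members, with Sostdc1 itself and Fst in the list. Chemokine and cytokine genes summed to 8557 against 4651 CPM in aged and 8979 against 6058 CPM in young members, and Ccl27a gave most of these sums. Of the 8 genes of that list with 50 CPM or more, 3 (Ccl27a, Cxcl16 and Il34) were higher in the Sostdc1-rich members of both libraries and 4 (Cxcl14, Il1r2, Il1rn and Il33) were lower. Upper follicle markers summed to 1446 against 541 CPM in aged and 1714 against 558 CPM in young members. That list holds Aqp3 and Krt17, which were among the genes chosen for their gap between these 2 kinds of member. Bulge markers summed lower in the Sostdc1-rich members, to 5310 against 12532 CPM in aged and 7675 against 11843 CPM in young members. Among sorted EpdSC, DESeq2 called Sparc, S100a6, Cpe and Ndufa4l2 higher and Emb lower with age, with log2 fold changes of 0.90, 0.91, 0.61, 1.09 and -0.89, while edgeR called 0 of these 5. With the replicate block edgeR called Sparc and S100a6 (adjusted p = 0.0271 and 0.0334), and with no filter on low counts it called Sparc, S100a6, Ndufa4l2 and Emb in the same directions.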
